A study of Danio rerio with 24 samples.

Results

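The comparison described here is that of 5 dpf (days post-fertilization) zebrafish larvae with active Fyn kinase in neurons against larvae that carry the Gal4 driver alone. It takes 8 of the 24 RNA-Seq libraries of the study, 4 per group, and all 25461 genes of the count table of these groups, of 26708 in the tables used. The control larvae, *elavl3:Gal4*, have the genotype huC:gal4:gcry:RFP, in which Gal4, a transcription factor of yeast, is made in neurons from the promoter of the neuronal gene *elavl3* (huC), next to a red lens marker. The other larvae, *elavl3:Gal4; UAS:fynY531F*, carry the same driver and the transgene UAS:fynY531F:gcry:GFP, made from *fyna* cDNA, which Gal4 switches on. The driver is thus shared by both groups, the effect of the *UAS* insertion without Gal4 is not part of the comparison. The study names 1 insertion line of the transgene, is89, for its work other than live imaging. WT larvae without either transgene, and all 3 genotypes at 3 dpf, are used only where named. Each replicate was RNA of pooled whole larvae, so that fewer cells of a type and less RNA per cell cannot be told apart.

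Fyn is a kinase of the Src family, which adds phosphate to tyrosines of signalling proteins at the cell membrane. A tyrosine in its tail, once phosphorylated, folds back on the kinase and keeps it shut, and its replacement by phenylalanine leaves the kinase active. In the brain Fyn acts at synapses and in myelinating glia, and it has been linked to inflammatory signalling in microglia, the resident macrophages of the brain. Stat3 and NF-κB are transcription factors that cytokines activate, and *socs3* genes, which encode feedback inhibitors of the Jak kinases, are among the targets of Stat3.

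The total count per library lay between 11890754 and 18752811 in *elavl3:Gal4; UAS:fynY531F* and between 12665621 and 24261610 in *elavl3:Gal4*. One library stood apart from its group. The median Pearson correlation of *elavl3:Gal4* replicate 3 with the rest of its group, across 19988 genes, was 0.863, against at least 0.989 for the other *elavl3:Gal4* libraries and 0.982 for the *elavl3:Gal4; UAS:fynY531F* libraries. Against the mean of the remaining *elavl3:Gal4* libraries, 1791 of 19746 genes were lower in replicate 3 by over 2 log2 units and 145 were higher by as much, where no other library exceeded 9 and 19 genes. The genes furthest below included *nav1b*, at 0.958 CPM against 54.2 to 65.9 CPM, and *ptprsa*, a receptor tyrosine phosphatase, at 2.28 CPM against 70.2 to 91.7 CPM. CPM are counts scaled by the size and composition of each of the 24 libraries. The genes furthest above encoded small proteins, among them *rpl36*, a ribosomal protein, at 3088 CPM against 560.1 to 645 CPM, and *ndufa2*, a subunit of respiratory complex I, at 213 CPM against 33.3 to 46.6 CPM. With the genes in 4 classes of summed exon length, the median difference of replicate 3 from its group was 0.54 on the log2 scale in the shortest class and −0.40 in the longest. The medians of the 4 *elavl3:Gal4; UAS:fynY531F* libraries stayed between −0.04 and 0.01 in every class. Each comparison was therefore made with all 8 libraries and again without replicate 3. What set replicate 3 apart was not tested.

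**Figure D1:**
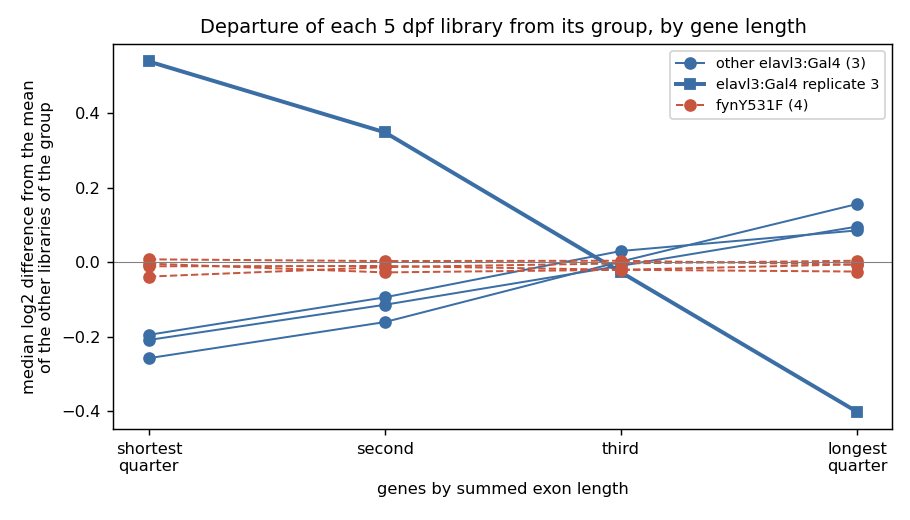
Median log2 difference (vertical axis) of each 5 dpf library from the remaining libraries of its group, averaged, for genes in 4 classes of summed exon length (horizontal axis). *elavl3:Gal4* replicate 3 (squares) fell from 0.54 in the shortest class to −0.40 in the longest, while the 4 *elavl3:Gal4; UAS:fynY531F* libraries (dashed) stayed between −0.04 and 0.01; the opposite slope of the other *elavl3:Gal4* libraries arises because replicate 3 is part of the mean they are set against.

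With all 8 libraries, 909 of 19746 genes tested (4.6%) differed at 5 dpf, by edgeR's quasi-likelihood test at an adjusted p under 0.05. Of these, 395 (2.0% of genes tested) were higher and 514 (2.6%) lower in *elavl3:Gal4; UAS:fynY531F*. A fold change above 2, which is 1 on the log2 scale, was reached by 288 of the higher (1.46%) and 420 of the lower genes (2.13%). The libraries of the groups did not overlap in CPM in 4059 genes (20.6%), or in 6912 genes (34.4%) without replicate 3. Without *elavl3:Gal4* replicate 3, 4562 of 20086 genes (22.7%) were called, 2343 higher (11.7%) and 2219 lower (11.0%). All 909 genes were called in the same direction in both. Libraries scaled by their totals alone, with all 8 in, gave 480 higher and 448 lower genes and moved the median of all genes by 0.14 on the log2 scale, so that the balance of higher and lower genes depends on the scaling. The difference lay more in the number of small changes, since 664 higher (3.31%) and 693 lower (3.45%) genes were past a log2 fold change of 1 without replicate 3. Against WT at 5 dpf, which shares the *elavl3:Gal4; UAS:fynY531F* libraries, 5700 of 19776 genes (28.8%) were called, 2874 higher (14.5%) and 2826 lower (14.3%).

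**Figure D2:**
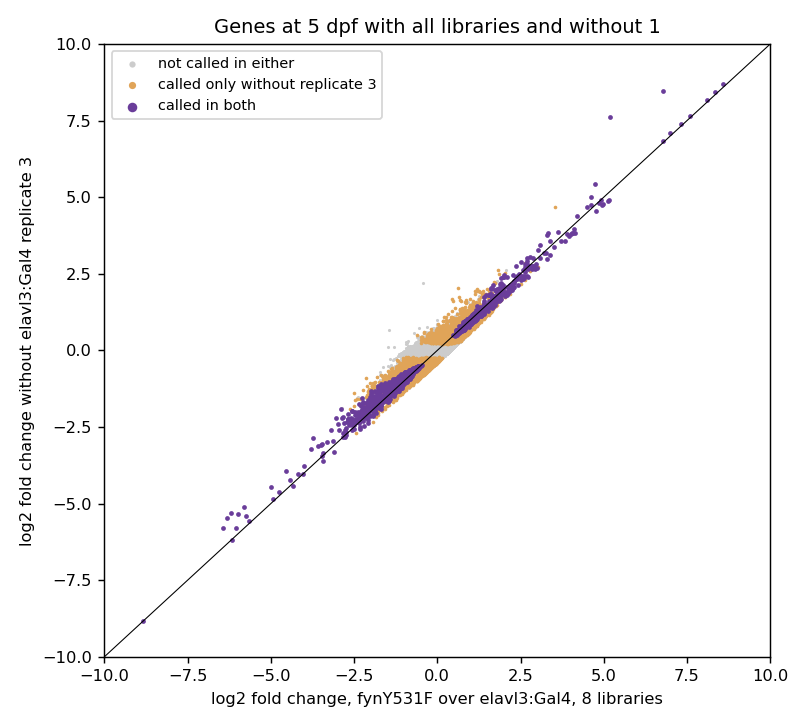
Log2 fold change of *elavl3:Gal4; UAS:fynY531F* over *elavl3:Gal4* at 5 dpf for each gene with all 8 libraries (horizontal axis) and without *elavl3:Gal4* replicate 3 (vertical axis), with the line of equality. The 909 genes called in both (purple) lie close to the line. Genes called only without replicate 3 (orange) mostly lie within 1 on the log2 scale, but some are larger, such as *fosl1a* (2.58) and *timp4.1* (2.16).

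The transgene is made from *fyna* (chromosome 17, 15502964 to 15528597, reverse strand, GRCz11), so that its reads and those of the endogenous gene cannot be told apart. *fyna* stood at 195, 141, 226 and 270.3 CPM in the 4 *elavl3:Gal4; UAS:fynY531F* libraries and at 89.8, 92, 84.9 and 90.9 CPM in *elavl3:Gal4*. The groups did not overlap, and WT libraries lay between 76.2 and 92.6 CPM. The log2 fold change was 1.23 ± 0.19 (SE, adjusted p = 0.00958), and 1.19 without replicate 3. At 3 dpf *fyna* had stood between 823 and 972 CPM in *elavl3:Gal4; UAS:fynY531F* against 69.1 to 81.9 CPM in *elavl3:Gal4*, and the genotype effect was smaller at 5 than at 3 dpf by 2.38 on the log2 scale, written as a difference of −2.38 (adjusted p = 7.09e-05, interaction). The paralog *fynb* (17.4 to 20.4 CPM in *elavl3:Gal4; UAS:fynY531F*) was called in neither fit. In *elavl3:Gal4* it had 19.4, 18.5, 2.16 and 18.7 CPM, and only replicate 3 was low. *elavl3* itself, the source of the driver's promoter and a marker of neurons, stood between 396 and 538 CPM in *elavl3:Gal4; UAS:fynY531F* and at 411, 478, 78.2 and 518 CPM in *elavl3:Gal4*, again with replicate 3 alone low, and was not called. Among the 14 tested genes of the list of Src family kinases and their regulators, *fyna* was the 1 called with all 8 libraries. Without replicate 3, *hck*, a kinase of myeloid cells (0.50 on the log2 scale), and *cbl*, a ubiquitin ligase that removes active kinases (0.31), were called in addition. These shares were 7.14% and 21.4%, beside 4.6% and 22.7% of all genes.

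The called members of the lists of inflammation with all 8 libraries were all on the higher side. Of the list of Jak-Stat3 signalling, 5 of 31 tested members were higher and 0 lower with all 8 libraries, and 12 were higher and 0 lower without replicate 3. The shares called were 16.1% and 38.7%, beside 4.6% and 22.7% of all genes. The list's median log2 fold change was 0.57 and 0.53, against −0.01 and −0.00 over all genes tested. *socs3b* had 114, 90.9, 94.6 and 99.1 CPM in *elavl3:Gal4; UAS:fynY531F* and 32.3, 31.3, 36.2 and 27.8 CPM in *elavl3:Gal4*. The groups were far apart, by 1.65 ± 0.13 on the log2 scale (adjusted p = 0.00114). The other members called, named after their values were seen, were *il11a* (3.96), an Il6-family cytokine, its signalling receptor *il6st* (1.00), the related receptor *lifrb* (0.82) and *timp2b* (1.20), an inhibitor of matrix proteases. *stat3* itself was higher by 1.02 without replicate 3 and was not called with all 8 libraries, and the same held for *junba* (1.71), which encodes a partner of Fos proteins, and *fosl1a* (2.58), a Fos family gene.

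Among the genes of NF-κB and cytokines, 4 of 38 members were higher and 0 lower, and without replicate 3, 14 were higher and 1 lower. This was 10.5% and 39.5% of members, beside 4.6% and 22.7% of all genes. *irg1l*, related to the gene of the enzyme that makes itaconate in activated macrophages, had 100.5, 68.6, 33.5 and 81.9 CPM against 5.25, 9.96, 6.11 and 8.04 CPM. Every *elavl3:Gal4; UAS:fynY531F* library was above every *elavl3:Gal4* library, although replicate 3 of the former had less than 40 CPM, and the log2 fold change was 3.27 ± 0.37 (adjusted p = 0.00241). Also higher were *rel* (1.18), an NF-κB subunit, *tnfrsf1a* (0.74), a receptor of Tnf, and *caspb* (0.69), an inflammatory caspase. The neutrophil chemoattractants *cxcl8a* (0.45) and *cxcl8b.1* (1.63) missed the threshold with all 8 libraries and passed it without replicate 3 (0.88 and 1.89). In the list of the interferon response, 7 of 28 members (25%) were higher and 0 lower, and without replicate 3, 11 of 29 (37.9%) were higher. *irf1b*, a transcription factor induced by interferon, had 13.7, 15.1, 14.2 and 14 CPM against 4.64, 4.9, 3.11 and 2.97 CPM, a difference of 1.86 ± 0.22 on the log2 scale (adjusted p = 0.00342). Also higher were the antiviral GTPases *mxa* (1.82), *mxb* (1.91) and *mxc* (1.58), and the guanylate-binding *gbp1* (1.40) and *gbp2* (0.93). Without replicate 3, *b2m* (1.53), the light chain of class I histocompatibility molecules, and *irf9* (0.73), a transcription factor of the interferon response, joined them.

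**Figure D3:**
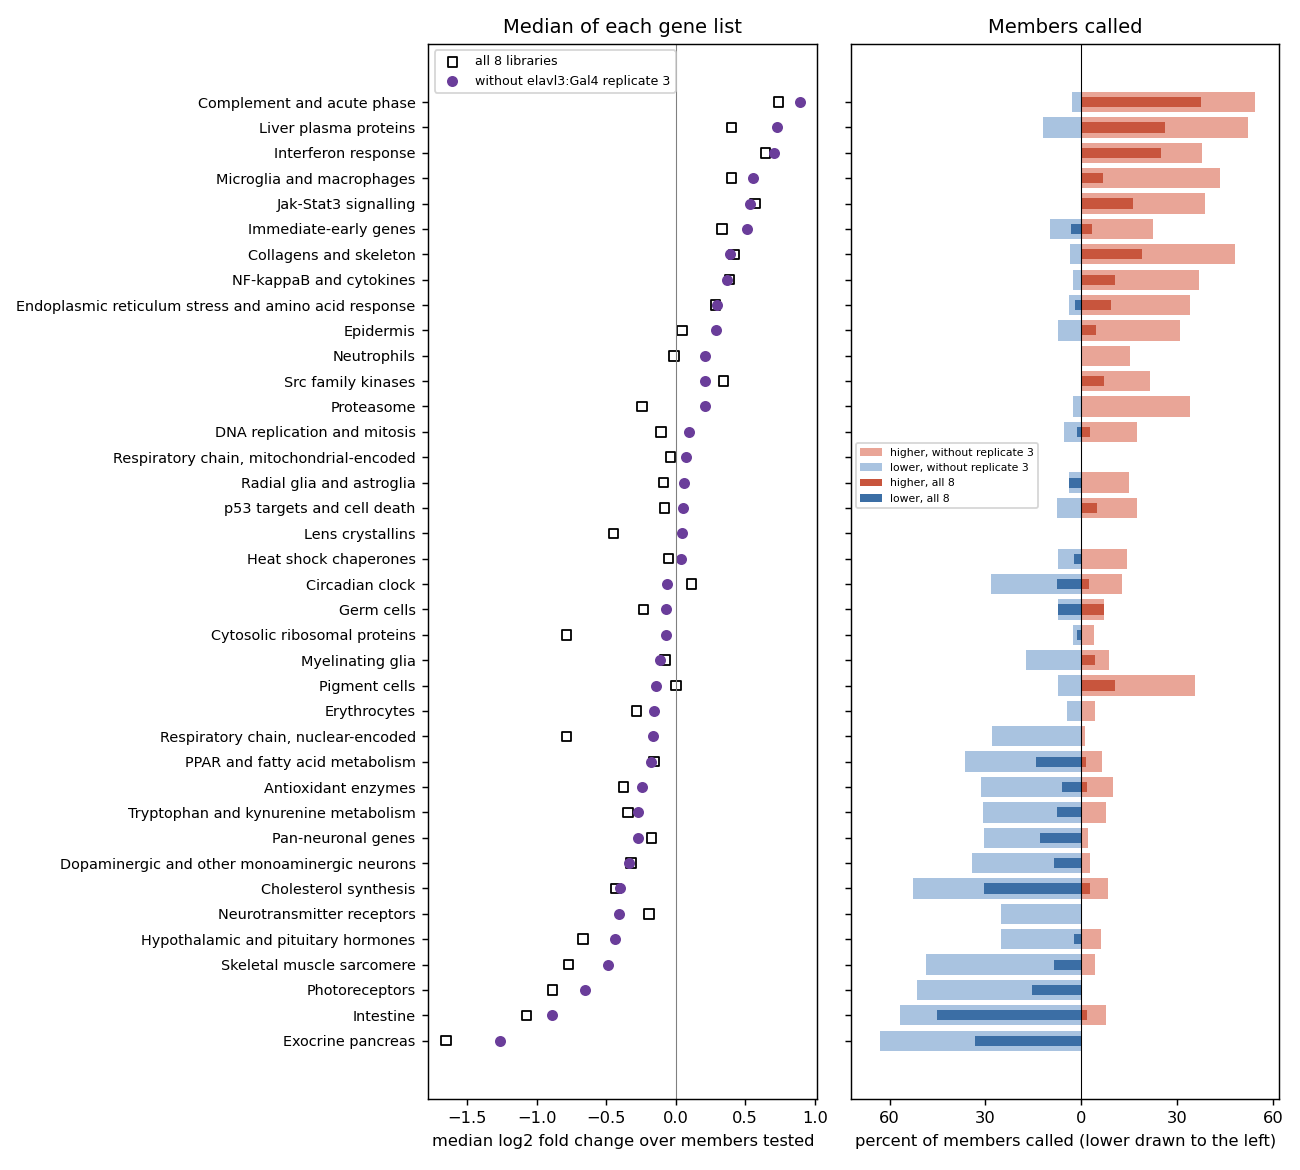
Median log2 fold change (left panel) and percentage of members called (right panel, lower drawn to the left of 0) for each of 38 gene lists, with all 8 libraries (open squares, narrow bars) and without *elavl3:Gal4* replicate 3 (filled circles, wide bars). Lists of complement, liver plasma proteins and interferon response lie at the top, exocrine pancreas and intestine at the bottom, and the medians of ribosomal proteins and of the nuclear-encoded respiratory chain move from −0.79 to −0.07 and −0.17 when replicate 3 is left out.

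Complement and plasma protein genes, which are made in large part by the liver, were called on the higher side too. Complement is a cascade of blood proteins that marks and lyses microbes. Of 32 tested members of the list of complement and the acute phase, 12 were higher and 0 lower, and without replicate 3, 18 of 33 were higher and 1 lower, with a median of 0.89. That is 37.5% and 57.6% called, beside 4.6% and 22.7% of all genes. The summed level of the list ran from 1223 to 1542 CPM in *elavl3:Gal4; UAS:fynY531F* and from 486 to 726 CPM in *elavl3:Gal4*. *cfh* (chromosome 22, 23641801 to 23668468, reverse strand), which encodes an inhibitor of the cascade, had 59.2, 54.2, 48.2 and 20.0 CPM in *elavl3:Gal4; UAS:fynY531F* and 0.273, 0.472, 0.479 and 0.39 CPM in *elavl3:Gal4*. The gap between the groups was 6.79 ± 0.43 on the log2 scale (adjusted p = 0.00111). In WT *cfh* stood between 13 and 27.2 CPM at 3 dpf and between 0.137 and 0.292 CPM at 5 dpf. Its neighbour *cfhl4* (23598036 to 23625372) had 97.2, 96.1, 86.3 and 57.7 CPM against 2.18, 2.06, 7.55 and 1.56 CPM. Replicate 3 was the highest of the *elavl3:Gal4* libraries, and the difference was 4.74 ± 0.51 with it and 5.42 ± 0.24 without it. The called components of the cascade were *c3a.1* (1.23), *c3a.2* (2.57), *c3a.3* (1.77), *c4* (1.44), *c5* (1.06), *c7a* (2.21), *c9* (1.44), *masp2* (0.75) and both genes named *c6* (1.99 and 3.09).

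Of 42 tested liver plasma protein genes, 11 were higher and 0 lower, and without replicate 3, 22 were higher and 5 lower. The list was thus called at 26.2% and 64.3%, beside 4.6% and 22.7% of all genes. *cp*, which encodes the copper-carrying ferroxidase ceruloplasmin, had 347, 389.8, 326 and 319.9 CPM against 77.7, 129, 111 and 100.3 CPM. No library of one group came near the other, and the log2 fold change was 1.73 ± 0.17 (adjusted p = 0.0015). Coagulation factors and their regulators were among the others, with *fga* (0.81), *f5* (1.02), *plg* (0.89) and 2 genes named *proca* (1.76 and 1.89), together with *apoba* (1.71), which encodes the protein of lipoprotein particles. The 5 members lower without replicate 3 were *fabp10a* (−1.26), *ahsg1* (−1.11), *igfbp1b* (−0.96), *ttr* (−0.73) and *f7* (−0.64).

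In the list of microglia and macrophages, 2 of 29 members were higher with all 8 libraries, and 13 of 30 without replicate 3, with 0 lower in both. These shares were 6.9% and 43.3%, beside 4.6% and 22.7% of all genes. *mpeg1.2*, which encodes a pore-forming protein of macrophages, had 108, 102, 62.5 and 110.5 CPM in *elavl3:Gal4; UAS:fynY531F* and 33.5, 30.7, 34.5 and 36.1 CPM in *elavl3:Gal4*. These groups did not overlap (1.52 ± 0.19, adjusted p = 0.00408), but WT libraries, at 15.1 to 20.1 CPM, lay below both. Without replicate 3 the macrophage markers *mpeg1.1* (1.63), *csf1ra* (0.52), *csf1rb* (0.78), *spi1a* (0.85), *irf8* (0.70) and *apoeb* (0.82) were called as well. The list's summed level ran from 1797 to 2234 CPM in *elavl3:Gal4; UAS:fynY531F*, from 1117 to 1271 CPM in *elavl3:Gal4* replicates 1, 2 and 4, and was 2489 CPM in replicate 3. Of 13 tested neutrophil genes, 0 were called with all 8 libraries by edgeR, where 1 higher and 1 lower had an unadjusted p under 0.05, and 1 and 1 were called by DESeq2. The one with the smallest p was *mmp9*, a matrix protease also made by other cells, at 12.6 to 32.6 CPM against 7.1 to 10.9 CPM (1.21 ± 0.30, adjusted p = 0.0579). It passed the threshold without replicate 3 (1.23), as did *lect2l* (0.70, against 0.04 with all 8 libraries). The share called was then 15.4%, below the 22.7% of all genes. Of the 13 genes 6 had a positive log2 fold change, and the median was −0.01 with replicate 3 and 0.21 without it. The summed level of the neutrophil list was 1268, 569, 609 and 625 CPM in *elavl3:Gal4; UAS:fynY531F* and 993, 1565, 2145 and 1540.4 CPM in *elavl3:Gal4*, so that all libraries of the former but replicate 1 lay below the latter.

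**Figure D4:**
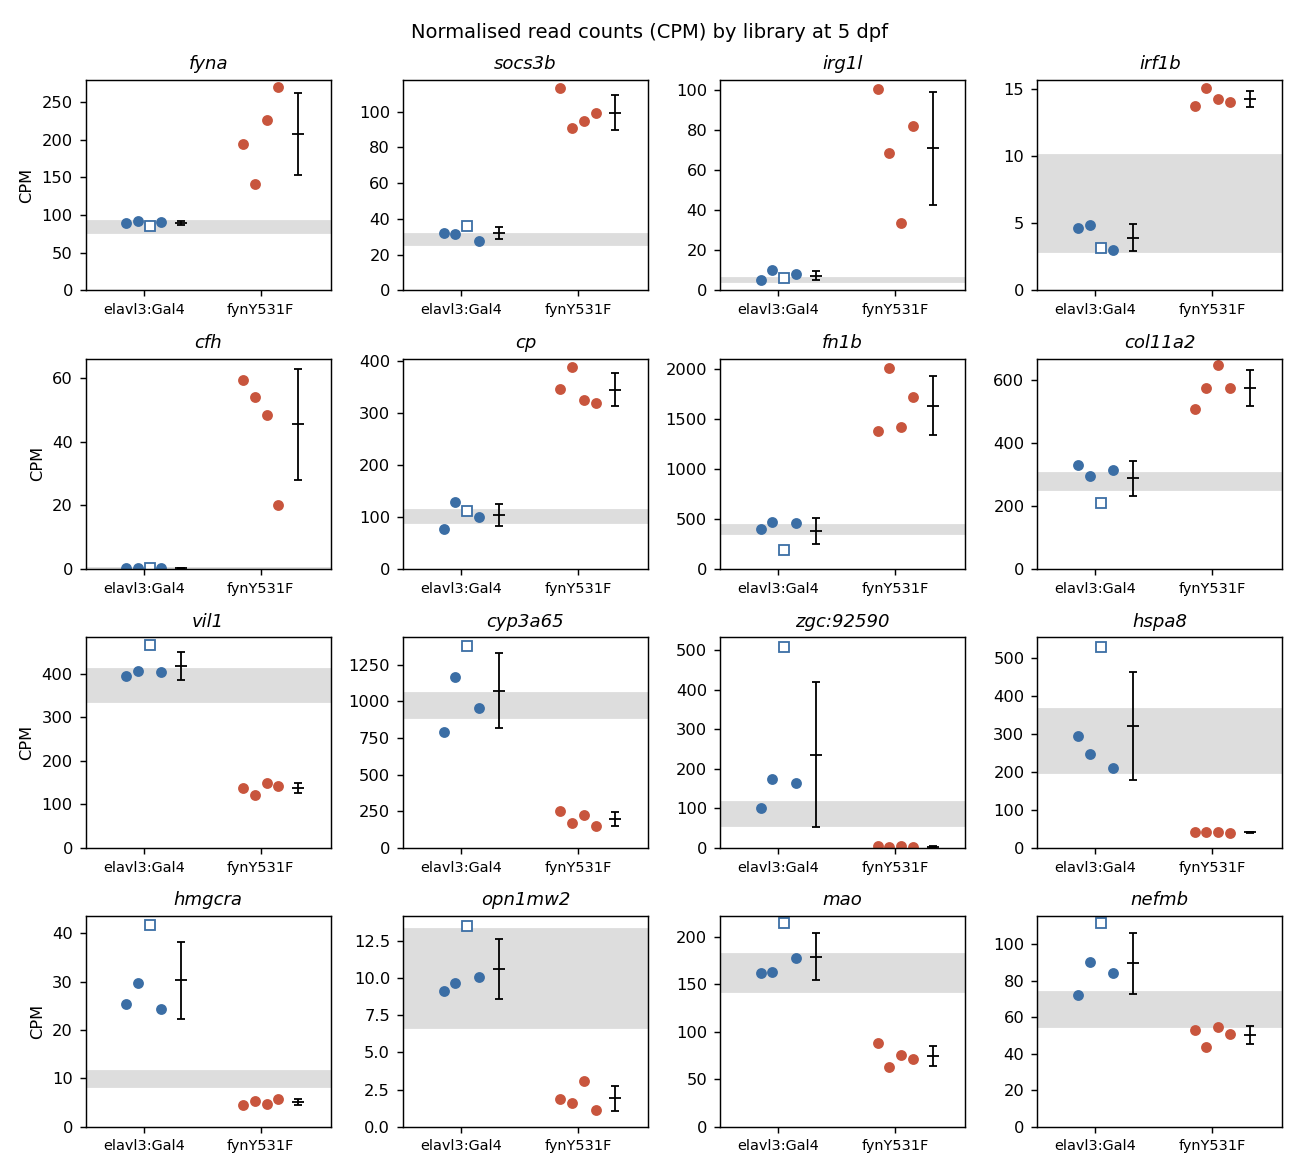
CPM (vertical axes, from 0) of 16 genes in each 5 dpf library of *elavl3:Gal4* (blue, replicate 3 as an open square) and *elavl3:Gal4; UAS:fynY531F* (red), with the mean and SD over 4 libraries beside them and the range of the 4 WT libraries at 5 dpf as a grey band. The 16 were chosen among named genes called with and without replicate 3, some by a rule that required groups without overlap. That the groups do not overlap in any of them thus follows in large part from the choice, and holds for 20.6% of all genes tested. In *hmgcra* all 4 *elavl3:Gal4* libraries (24.3 to 41.7 CPM) lie above the WT band.

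Genes of the extracellular matrix and skeleton formed a further higher group. Of 58 tested members, 11 were higher and 0 lower, and 28 and 2 without replicate 3. This was 19% and 51.7% of members, beside 4.6% and 22.7% of all genes. *fn1b*, which encodes fibronectin, had 1380.2, 2008, 1422 and 1712 CPM in *elavl3:Gal4; UAS:fynY531F* against 395, 466, 192 and 460.1 CPM (2.11 ± 0.31, adjusted p = 0.00677). Among higher genes with a symbol and groups without overlap, it was the most counted past a log2 fold change of 1. The cartilage collagen gene *col11a2* had 507, 573, 646 and 575 CPM against 332, 296, 209 and 315 CPM (1.00 ± 0.18, adjusted p = 0.0181). In both, replicate 3 was the lowest *elavl3:Gal4* library, and the rule for naming them required groups that do not overlap. The other cartilage genes called were *matn1* (0.99), *acana* (0.81), *hapln1a* (0.65), *hapln1b* (0.72) and *col10a1b* (2.29), and the matrix proteases *mmp2* (0.77) and *mmp14b* (1.73) were higher too. At 3 dpf the same list had 2 higher and 34 lower of 59 members, with a median of −0.36 against 0.42 at 5 dpf. Of all genes, 8.88% were higher and 9.73% lower at 3 dpf. *col11a2* was lower by 0.52 at 3 dpf, and its effect at the 2 ages differed by 1.54 (adjusted p = 0.00024, interaction). *timp2b* was higher at both ages, by 0.92 at 3 dpf and by 1.20 at 5 dpf. Also among the most counted higher genes was *myh9a*, a non-muscle myosin heavy chain, at 463, 772, 501 and 571 CPM against 309, 264, 162 and 284 CPM (1.18 ± 0.25).

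Of 42 tested epidermal genes, 2 were higher and 0 lower, a share of 4.76% beside 4.6% of all genes, and 13 and 3 without replicate 3 (38.1% beside 22.7%). *krt96*, a keratin gene, had 19.5, 29.2, 15.3 and 14.2 CPM against 3, 3.56, 5.75 and 4.22 CPM, and the groups did not overlap (2.26 ± 0.31, adjusted p = 0.00501). *zgc:111983*, on the same list, had 461, 989, 435 and 485 CPM against 167, 128, 188 and 209.7 CPM, with replicate 2 of *elavl3:Gal4; UAS:fynY531F* far above the rest (1.78 ± 0.30). Of 28 pigment cell genes, 3 were higher and 0 lower (10.7%), and 10 and 2 without replicate 3 (42.9%). The first 3 were *paics* and *gart* (0.84), enzymes of purine synthesis that reflecting pigment cells use, and *mitfa* (1.22), the transcription factor of melanophores. Of the 28 pigment cell genes, 14 had a positive log2 fold change with all 8 libraries. The list's median was −0.0005 with replicate 3 and −0.14 without it. *paics* had 479.8, 544, 431 and 450.1 CPM against 132, 115, 209 and 116 CPM (1.75 ± 0.21, adjusted p = 0.00346), and WT stood at 532 to 731 CPM at 3 dpf and at 163 to 198 CPM at 5 dpf.

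Of the 38 lists, that of the intestine held the largest share of called members, with and without replicate 3. Of 51 tested intestinal genes, 23 were lower and 1 higher with all 8 libraries, a share of 47.1% called against 4.6% of all genes. Leaving out replicate 3, 29 were lower and 4 higher, a share of 64.7% against 22.7% of all genes. *vil1*, which encodes the villin of the intestinal brush border, had 137, 121, 149 and 141 CPM in *elavl3:Gal4; UAS:fynY531F* and 395, 406, 466 and 404 CPM in *elavl3:Gal4*. The spread within each group was small beside the gap (−1.60 ± 0.12, adjusted p = 0.00114). *cyp3a65*, a cytochrome P450 gene outside this list, had 253, 171, 226 and 147 CPM against 792, 1169, 1374 and 956 CPM (−2.41 ± 0.25), and *chia.2*, a chitinase gene on the list, had 394, 225, 349.9 and 261 CPM against 1040.1, 1387, 1508 and 1204 CPM (−2.05 ± 0.23). Both groups were far above the 3 dpf levels of *chia.2*, which were at most 4.08 CPM in any genotype. Among the other lower members of the list were brush border enzymes such as *alp3* (−3.10), *mep1b* (−2.77), *anpepa* (−2.50) and *dpp4* (−1.61), the peptide and sugar transporters *slc15a1a* (−2.04), *slc15a1b* (−2.11) and *slc5a1* (−1.82), the lipid carriers *fabp2* (−2.83) and *mttp* (−1.03), and *cdx1b* (−1.89), a transcription factor of the intestine. The 1 member that was higher, *aqp8a.1*, a water channel, had 5.08, 4.67, 4.56 and 2.93 CPM against 0.819, 0.859, 1.92 and 1.25 CPM (1.89 ± 0.33). The summed level of the list overlapped between the groups, at 8378 to 11399 CPM against 8791 to 15350.2 CPM, and the members higher without replicate 3 included *apoa1a* (1.85) and *apoa1b* (0.76), apolipoprotein genes that the liver also makes.

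Of 27 tested exocrine pancreas genes, 9 were lower and 0 higher, and 17 and 0 without replicate 3, with medians of −1.65 and −1.26. The list was called at 33.3% and 63%, beside 4.6% and 22.7% of all genes. Those called in both were the elastases *ela2* (−2.03) and *ela2l* (−2.88), the carboxypeptidases *cpa4* (−2.37) and *cpb1* (−1.65), amylase *amy2a* (−2.56), the lipases *cel.1* (−1.53), *cel.2* (−1.78) and *pla2g1b* (−2.35), and *si:ch211-240l19.6*. The last had 213 counts over the *elavl3:Gal4* libraries, 95 of them in replicate 3, and 3 over the *elavl3:Gal4; UAS:fynY531F* libraries. The ratio with all 8 libraries was 69.9, with a 95% counting interval (exact, Clopper-Pearson) of 23.6 to 342. Its log2 fold change was −6.20 with replicate 3 and −5.32 without it. The summed level of the list was 8827, 4460.2, 4178 and 4107 CPM in *elavl3:Gal4; UAS:fynY531F* and 8079, 14078, 31977 and 12425 CPM in *elavl3:Gal4*. Replicate 1 was thus the highest of the former and the lowest of the latter, and the 2 libraries overlapped.

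Genes of cholesterol synthesis were called mostly on the lower side. Of 36 tested members, 11 were lower and 1 higher, and without replicate 3, 19 were lower and 3 higher. That is 33.3% and 61.1% called, beside 4.6% and 22.7% of all genes. *hmgcra*, the rate-limiting reductase, had 4.57, 5.24, 4.63 and 5.86 CPM in *elavl3:Gal4; UAS:fynY531F* and 25.3, 29.8, 41.7 and 24.3 CPM in *elavl3:Gal4*. The groups were separated by 2.56 ± 0.22 on the log2 scale, as a log2 fold change of −2.56 (adjusted p = 0.00121), and WT libraries stood between them at 8.22 to 11.5 CPM. Against WT the log2 fold change of *hmgcra* was −0.96, so that part of the difference lay in a higher level in *elavl3:Gal4* than in WT. From the start of the pathway to its end, *hmgcs1* (−0.95), *sqlea* (−2.01), *lss* (−1.91), *cyp51* (−2.35), *tm7sf2* (−1.24), *msmo1* (−2.83), *nsdhl* (−1.56), *hsd17b7* (−0.74), *ebp* (−1.96) and *dhcr7* (−0.91) were lower. *npc1*, which moves cholesterol out of lysosomes, was the 1 higher, at 155 to 192 CPM against 76.8 to 116 CPM (0.80 ± 0.16). Against WT the list had 17 of 36 members lower and 4 higher, with a median of −0.36, beside −0.43 against *elavl3:Gal4*. Of all genes, 14.3% were lower and 14.5% higher against WT. The summed level overlapped between the groups, at 1227 to 1386 CPM in *elavl3:Gal4; UAS:fynY531F* and 1313 to 1561 CPM in *elavl3:Gal4*.

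Lipid and other metabolism showed calls in both directions. In the list of PPAR targets and fatty acid metabolism, 9 of 63 members were lower and 1 higher, and 23 and 4 without replicate 3. This was 15.9% and 42.9% of members, beside 4.6% and 22.7% of all genes. *acsl5*, which couples fatty acids to coenzyme A, had 79, 68.2, 64.9 and 68.5 CPM against 177, 197, 269 and 195 CPM (−1.57 ± 0.15, adjusted p = 0.00143). Bile acid synthesis was lower in its rate-limiting enzyme *cyp7a1* (−2.61) and in *cyp8b1* (−2.23), as was the fatty acid receptor *cd36* (−2.24). *ucp1*, a mitochondrial carrier, had 609.6, 472, 414 and 399 CPM against 702, 1248, 1635 and 999 CPM, with a narrow gap between the groups (−1.26 ± 0.27, adjusted p = 0.0353). *slc27a2a*, which imports fatty acids, was higher, at 204 to 245 CPM against 98.8 to 112 CPM (1.15 ± 0.12). Of 39 genes of tryptophan and kynurenine metabolism, 3 were lower (7.69%) and 0 higher, *mao*, *got2a* (−1.28) and *aldh9a1a.2* (−2.35). Without replicate 3, 12 were lower and 3 higher (38.5%). Of 51 antioxidant genes, 3 were lower and 1 higher (7.84%), and 16 and 5 without replicate 3 (41.2%). The lower ones were glutathione transferases, *gsta.1* (−2.27), *gsto1* (−2.0) and *gstp2* (−1.66), with *gsta.1* at 6.13 to 10.7 CPM against 30.1 to 71.4 CPM. The higher one was *sod3a* (1.37), an extracellular superoxide dismutase, at 6.63 to 9.56 CPM against 2.4 to 4.61 CPM.

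The calls among pan-neuronal genes with all 8 libraries were on the lower side. Of 46 tested pan-neuronal genes, 6 were lower and 0 higher, and 14 and 1 without replicate 3, with medians of −0.17 and −0.28. The shares called were 13% and 32.6%, beside 4.6% and 22.7% of all genes. *nefmb*, a neurofilament gene, had 53.1, 43.6, 54.8 and 50.9 CPM in *elavl3:Gal4; UAS:fynY531F* against 72.1, 90.3, 112 and 84.5 CPM in *elavl3:Gal4* (−0.82 ± 0.15, adjusted p = 0.0211). WT libraries, at 54.8 to 73.8 CPM, began just above the highest *elavl3:Gal4; UAS:fynY531F* library and overlapped the lower end of *elavl3:Gal4*. The log2 fold change of *nefmb* against WT was −0.31. The others were *nefla* (−1.13), also a neurofilament gene, *stmn3* (−1.10), which acts on microtubules, *stxbp1b* (−1.44) and *vamp1* (−0.64), which act in transmitter release, and *isl1* (−0.74), a transcription factor of motor and sensory neurons. At 3 dpf, 18 of 47 pan-neuronal genes were higher and 1 lower, with a median of 0.19, where 8.88% of all genes were higher and 9.73% lower.

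In the list of dopaminergic and other monoaminergic neurons, 3 of 35 members were lower and 0 higher, and 12 and 1 without replicate 3. This was 8.57% and 37.1% of members, beside 4.6% and 22.7% of all genes. *mao*, which breaks down monoamines, had 87.8, 62.6, 76 and 71.4 CPM against 162, 163, 214 and 178 CPM (−1.26 ± 0.15, adjusted p = 0.00317). The groups did not overlap, and *mao* lay at 35.3 to 39.8 CPM in *elavl3:Gal4* at 3 dpf. The others were *comta* (−0.69), which also degrades catecholamines, and *qdpra* (−0.84), which regenerates the cofactor of tyrosine hydroxylase. In RNA of whole larvae the cells in which these 3 enzymes differed cannot be told. *mao* was also on the list of tryptophan and kynurenine metabolism. Some genes of dopamine synthesis and transport had negative values in both fits and were called only without replicate 3. They were *ddc* (−0.96 with all 8 libraries and −1.14 without replicate 3), *th2* (−1.93 and −1.77), *gch1* (−0.31 and −0.38) and the dopamine transporter *slc6a3* (−0.73 and −0.84). Called without replicate 3 as well were the transcription factors *otpa* (−0.54), *otpb* (−0.60) and *nr4a2a* (−0.44). The 1 member higher without replicate 3 was *sncga* (0.79, against 0.17 with all 8 libraries). The summed level was 857 to 1001 CPM in *elavl3:Gal4; UAS:fynY531F* and 1179.9 to 1499 CPM in *elavl3:Gal4*.

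Of 48 genes of neurotransmitter receptors, 0 were called with all 8 libraries by edgeR or by DESeq2, and 4 lower ones had an unadjusted p under 0.05. Without replicate 3, 12 were lower and 0 higher, all of them glutamate or GABA receptor subunits. These 12 were 25% of the list, where 22.7% of all genes were called in either direction and 11.0% were lower. The list was low in replicate 3 itself, by a median of 0.78 below its group, written as −0.78. The receptor gene with the smallest p was *glrba*, a glycine receptor subunit, which was called in neither fit (2.37 to 3.94 CPM against 4.06 to 6.96 CPM, adjusted p = 0.195 and 0.0733). Of 47 tested genes of hypothalamic and pituitary hormones, 1 was lower, *pdyn* (−1.75), an opioid peptide precursor, at 0.456 to 1.38 CPM against 1.87 to 3.71 CPM. This share, 2.13%, was below the 4.6% of all genes. Without replicate 3, 12 hormone genes were lower and 3 higher (31.2% beside 22.7%), the former with *pomca* (−1.37), *gh1* (−1.52) and *pmch* (−1.82). At 3 dpf, 19 of 43 hormone genes were higher and 4 lower, where 8.88% of all genes were higher and 9.73% lower.

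Among 31 immediate-early genes, which neurons and other cells switch on within minutes of a stimulus, *atf3* was higher and *npas4a* lower, and without replicate 3, 7 were higher and 3 lower. The list was called at 6.45% and 32.3%, beside 4.6% and 22.7% of all genes. *atf3* had 73.3, 30.3, 44.4 and 50.3 CPM against 6.82, 10.3, 10.9 and 10.8 CPM (2.36 ± 0.29, adjusted p = 0.00357), and at 3 dpf it was higher by 2.31. *npas4a*, which follows neuronal activity, had 51, 46, 60.4 and 45.4 CPM against 72.1, 85.5, 82.4 and 89.8 CPM (−0.69 ± 0.14, adjusted p = 0.0255). With all 8 libraries the shares called of the glial lists, 3.7% and 4.35%, were near the 4.6% of all genes. Without replicate 3 they were 18.5% and 26.1%, beside 22.7%. Of 27 genes of radial glia and astroglia 1 was lower, *glulc* (−1.54), a glutamine synthetase, at 1.12 to 1.31 CPM against 2.58 to 6.23 CPM, and without replicate 3, 4 were higher and 1 lower. Of 23 genes of myelinating glia 1 was higher, *padi2* (0.62 ± 0.13), a peptidylarginine deiminase, at 85.9 to 118 CPM against 60.2 to 72.2 CPM. Without replicate 3, 2 myelinating glia genes were higher and 4 lower, the latter *mbpa* (−0.43), which encodes myelin basic protein, *fa2h* (−0.54), *prx* (−0.54) and *nkx2.2a* (−0.65), and DESeq2 called 2 and 3 with all 8 libraries.

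The calls among photoreceptor genes were all on the lower side. Of 39 tested members, 6 were lower and 0 higher, and 20 and 0 without replicate 3, with medians of −0.89 and −0.65. That is 15.4% and 51.3% called, beside 4.6% and 22.7% of all genes. *opn1mw2*, a green cone opsin, had 1.86, 1.59, 3.11 and 1.12 CPM in *elavl3:Gal4; UAS:fynY531F* and 9.14, 9.71, 13.5 and 10.1 CPM in *elavl3:Gal4* (−2.45 ± 0.33, adjusted p = 0.00492). The groups did not overlap, and the 3 dpf *elavl3:Gal4* libraries, at 3.54 to 7.57 CPM, lay between them. The rest were a second green opsin, *opn1mw1* (−1.49), the cone and rod transducins *gnat2* (−1.44), *gnat1* (−1.24) and *gnb3b* (−1.50), and *grk1b* (−1.68), which shuts the opsin off. Rod opsin *rho* was lower by 0.79 and the blue and ultraviolet opsins *opn1sw2* and *opn1sw1* by 1.31 and 0.95 without replicate 3, as log2 fold changes of −0.79, −1.31 and −0.95. Of 50 lens crystallin genes 0 were called with or without replicate 3, by edgeR or DESeq2, and with all 8 libraries 1 had an unadjusted p under 0.05 and was lower. Their summed level was 9903 to 23749 CPM in *elavl3:Gal4; UAS:fynY531F* and 12965 to 17157 CPM in *elavl3:Gal4*, but 40810.0 CPM in replicate 3. The member with the smallest p, *crygm2d5*, stood at 139 CPM in replicate 3 against 19.5 to 39.8 CPM in the rest of *elavl3:Gal4*.

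Muscle genes were mostly called on the lower side as well. Of 70 tested sarcomere genes, 6 were lower and 0 higher, and 34 and 3 without replicate 3, with medians of −0.77 and −0.49. This was 8.57% and 52.9% of members, beside 4.6% and 22.7% of all genes. *atp2a1l*, a calcium pump gene outside this list, had 615, 498, 516 and 291 CPM against 1249, 1532, 1639 and 1307 CPM (−1.57 ± 0.24, adjusted p = 0.00952). Among lower genes with a symbol and groups without overlap, it was the most counted past a log2 fold change of −1. *acta1b*, skeletal actin, had 376, 346, 383 and 299.6 CPM against 671, 656, 1047 and 683 CPM (−1.11 ± 0.19). Neither overlapped between the groups, which the rule for naming them required. *fbxo32*, a ubiquitin ligase of muscle wasting, had 9.48, 6.61, 6.84 and 6.69 CPM against 17.3, 20.3, 29.2 and 20.1 CPM (−1.54 ± 0.22). The other members called with all 8 libraries were the actin gene *acta1a* (−1.35), *actn3a* (−1.21), which anchors actin at the Z-disc, *myom2a* (−0.74) of the M-band and the myosin light chain gene *mylpfa* (−6.43). *mylpfa* failed the rule for genes of largest fold change, so its mean log2 CPM was under 1 or its groups overlapped. Its level is not reported here. The 3 that were higher without replicate 3 were *tcap* (1.73), *myhb* (0.80) and *smyhc2* (0.57). At 3 dpf, 51 of 70 sarcomere genes were lower and 2 higher, with a median of −0.50, where 9.73% of all genes were lower and 8.88% higher.

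Of 53 genes of endoplasmic reticulum stress and the amino acid response, 5 were higher and 1 lower, a share of 11.3% beside 4.6% of all genes. The counts without replicate 3 were 18 and 2, a share of 37.7% beside 22.7%. Besides *atf3*, those higher with all 8 libraries were the chaperones *hyou1* (0.79) and *dnajb11* (0.59), *phgdh* (0.77), the first enzyme of serine synthesis, and *sesn2* (0.93). *slc3a2a*, a subunit of amino acid transporters, was the lower one, at 7.62, 8.09, 14.6 and 13 CPM against 37.3, 48.6, 54 and 41.2 CPM (−2.05 ± 0.25). Of 40 p53 targets and cell death genes, 2 were higher, *sesn2* and *cdkn1a*, an inhibitor of the cell cycle, and 7 were higher and 3 lower without replicate 3. The shares called, 5% and 25%, were near the 4.6% and 22.7% of all genes. *cdkn1a* had 69.1, 34.8, 34.2 and 35.2 CPM against 17, 12.5, 12 and 15.7 CPM (1.61 ± 0.27, adjusted p = 0.0143), and at 3 dpf it was lower, by 0.45. Of 74 genes of DNA replication and mitosis, 2 were higher and 1 lower, and 13 and 4 without replicate 3. These shares, 4.05% and 23%, were close to the 4.6% and 22.7% of all genes. *uhrf1*, which maintains DNA methylation, had 103, 92.1, 99.4 and 100.3 CPM against 68.8, 61.5, 62.4 and 66.5 CPM (0.62 ± 0.11).

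Of the circadian clock genes, 1 of 39 was higher and 3 were lower, and 5 and 11 without replicate 3. This was 10.3% and 41% of members, beside 4.6% and 22.7% of all genes. *nr1d4b*, a repressor of the clock, had 30.8, 15.4, 19.5 and 17.2 CPM against 3.82, 5.41, 1.08 and 4.84 CPM (2.43 ± 0.45, adjusted p = 0.0196), and *cry5*, which encodes a light-driven DNA repair enzyme, had 4.49, 3.19, 1.73 and 2.44 CPM against 8.39, 9.71, 11.3 and 8.74 CPM (−1.68 ± 0.30). *per2* (−1.97) and *cry1aa* (−1.08), both induced by light, were lower without replicate 3. The sources do not give the hour at which each group was collected. Of 14 germ cell genes, *tdrd5* was higher (1.51 ± 0.26, 2.51 to 4.61 CPM against 1.16 to 1.42 CPM) and *msh4* lower. Their share was 14.3% with and without replicate 3, beside 4.6% and 22.7% of all genes.

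Replicate 3 of *elavl3:Gal4* bore most on lists whose members stood high in it. The cytosolic ribosomal protein genes had a median of −0.79 with all 8 libraries and −0.07 without replicate 3, in which they stood 1.89 above the group, and those of the nuclear-encoded respiratory chain had −0.79 and −0.17. Of 41 proteasome genes 0 were called with all 8 libraries by edgeR, where 4 higher and 1 lower had an unadjusted p under 0.05 and DESeq2 called 3 and 1, and 14 were higher and 1 lower without replicate 3, while the median turned from −0.24 to 0.21. It was 0.05 with library totals alone. Without replicate 3 the calls made up 36.6% of proteasome genes, beside 22.7% of all genes. The member with the smallest p, *psmb5*, stood at 45.2 to 64.5 CPM against 13.4 to 34.3 CPM (1.07 ± 0.28, adjusted p = 0.0639). Among the 81 tested nuclear-encoded respiratory genes edgeR called 0, with 1 higher and 20 lower at an unadjusted p under 0.05, and DESeq2 called 1 and 7. Without replicate 3, 23 were lower and 1 higher of 82 tested, a share of 29.3%. The first by p was *cox6a2*, a subunit of complex IV in muscle (−1.71 ± 0.45, adjusted p = 0.0715, and −1.09 without replicate 3). Of the 13 genes encoded in mitochondrial DNA 0 were called with or without replicate 3 by edgeR or DESeq2, 0 had an unadjusted p under 0.05, and *mt-nd3*, with the smallest p, had 1647 CPM in replicate 3 against 402 to 459 CPM in the rest of *elavl3:Gal4*. Of 23 erythrocyte genes 0 were called with all 8 libraries by edgeR, 3 lower ones had an unadjusted p under 0.05 and DESeq2 called 1 lower, with *hbae3*, an embryonic globin, at 2312 CPM in replicate 3 against 523 to 617 CPM.

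The lower side also held single genes with large fold changes. *hspa8*, which encodes a constitutive chaperone of the Hsp70 family, had 42.7, 42.8, 41.3 and 38.5 CPM in *elavl3:Gal4; UAS:fynY531F* and 297, 249, 531 and 212 CPM in *elavl3:Gal4* (−2.95 ± 0.28, adjusted p = 0.00141). It was the 1 gene called of 42 heat shock chaperones with all 8 libraries, where DESeq2 called 1 higher and 3 lower. Without replicate 3, 6 chaperone genes were higher, among them *hsp70l* (1.12) and *hspd1* (0.52), and 3 lower. Chaperone genes were thus called at 2.38% and 21.4%, not above the 4.6% and 22.7% of all genes. *rpl21* had 10.5, 10.9, 9.94 and 9.13 CPM against 55.7, 59.4, 165 and 47.3 CPM (−2.99 ± 0.40), and was the 1 called of 78 ribosomal protein genes with all 8 libraries. Without replicate 3, *rpl30* (0.38), *rpl39* (0.77) and *rpl26* (0.33) were higher, and *rps12* (−0.33) was lower beside *rpl21*. Ribosomal protein genes were called at 1.28% and 6.41%, below the shares of all genes. Their summed level was 74025 to 88602 CPM in *elavl3:Gal4; UAS:fynY531F* and 77027 to 302112 CPM in *elavl3:Gal4*, of which *rpl21* was a small part. *hspa8* and *rpl21* stood near the 3 dpf level of the same genotype, at 27.1 to 29.7 CPM for *hspa8* and 7.61 to 9.79 CPM for *rpl21*, while WT had reached 198 to 366 CPM and 31.3 to 85.4 CPM at 5 dpf. *hnrnpdl*, an RNA-binding protein gene, had 3, 2, 5 and 6 counts against 181, 266, 220 and 160 counts (−5.75 ± 0.46), and *pabpc4*, a poly(A)-binding protein gene, had 1, 1, 3 and 2 counts against 94, 69, 209 and 103 counts (−6.32 ± 0.84). *msh4*, a gene of meiotic recombination, had 1, 2, 0 and 0 counts against 52, 109, 36 and 59 counts, a ratio of 84 with a counting interval of 28.4 to 410.2. Also at very few reads were *dlgap5* (0 to 0.207 CPM against 2.11 to 3.47 CPM), the mitotic gene on the lower side, *fhl1a* (0 to 0.339 CPM against 2.39 to 10.3 CPM), *mospd1* (−4.98) and *si:ch211-77g15.32* (−4.55). *zgc:92590* had 5.92, 1.65, 5.59 and 1.6 CPM against 101, 174, 507 and 164 CPM (−5.99 ± 0.71), and at most 0.143 CPM in any group at 3 dpf. In these genes the groups did not overlap, which the rule for naming them required except for *hspa8*, *rpl21* and *dlgap5*. Replicate 3 of *elavl3:Gal4* was the highest of its group except in *msh4*.

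Leaving out genes below a mean log2 CPM of 1, the largest higher fold changes after *cfh* were those of *bcam*, a cell adhesion gene on an unplaced scaffold, at 11.1, 12.8, 11.9 and 13.6 CPM against 0.682, 0.301, 0 and 0.312 CPM (5.12 ± 0.50, adjusted p = 0.00143), and of *si:dkey-271j15.3* (4.99 ± 0.63), *CR385054.1* (4.91 ± 0.36) and *CT573383.1* (4.85 ± 0.45), to which no function is given here. *he1.2*, a hatching enzyme gene, had 10.4, 4.38, 4.97 and 1.12 CPM against 0, 0, 0.24 and 0.703 CPM (4.63 ± 1.05, adjusted p = 0.0431), and at 3 dpf *elavl3:Gal4* had 5.42 to 20.8 CPM. *si:dkey-239j18.3* had 7.36, 5.64, 22.4 and 2.37 CPM against 0.273, 0.0429, 0.719 and 0.703 CPM. Of the genes named, *cfhl4*, *CR385054.1*, *hnrnpdl*, *hspa8* and *mt-nd3* overlap another gene on the same strand, and a further group, with *fyna*, *fn1b*, *paics*, *socs3b*, *acsl5*, *cry5*, *krt96*, *rpl21* and *dlgap5* in it, overlaps one on the opposite strand. The sources do not say whether strand was used in counting, so that part of their counts may belong to the partner.

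WT larvae, whose libraries are not part of the comparison, showed what each gene does between the ages. In WT, 11352 of 19589 genes (58.0%) changed from 3 to 5 dpf, 5734 up (29.3%) and 5618 down (28.7%), or 4310 and 7724 with library totals alone. Of the 507 lower genes that could be tested there, 414 (81.7%) rose and 31 (6.11%) fell with age in WT. Of the 336 higher genes, 179 (53.3%) fell and 45 (13.4%) rose. Over all genes tested in both, 29.6% rose and 28.6% fell. Without replicate 3, 61.9% of 2183 lower genes rose and 49.6% of 2185 higher genes fell. *cfh*, *paics*, *cp* and *irg1l* are examples of the latter kind, and *hspa8*, *chia.2*, *vil1* and *mao* of the former, while *fn1b*, *socs3b* and *irf1b* were higher at 5 dpf without a fall with age in WT.

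A score over 2521 age-dependent genes of WT placed each library between the mean of WT at 3 dpf (0) and of WT at 5 dpf (1). The *elavl3:Gal4; UAS:fynY531F* libraries at 5 dpf stood at 0.749, 0.662, 0.655 and 0.638, and those of *elavl3:Gal4* at 0.959, 1.02, 1.09 and 1.00. The groups did not overlap, and WT at 5 dpf ran from 0.975 to 1.02. Replicate 3, at 1.09, was the highest *elavl3:Gal4* library, and the lowest *elavl3:Gal4* library was the same without it. At 3 dpf the *elavl3:Gal4; UAS:fynY531F* libraries lay from −0.13 to −0.07 and those of *elavl3:Gal4* from −0.07 to −0.02. A slower development and a change of the same genes at an unchanged age cannot be told apart from these values.

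**Figure D5:**
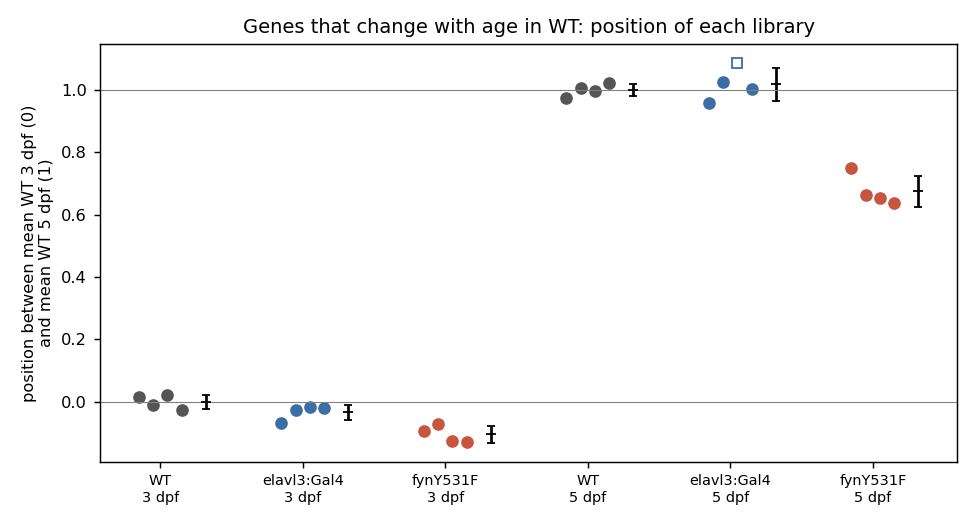
Position of each of the 24 libraries (vertical axis) between the mean of WT at 3 dpf (0) and at 5 dpf (1), over 2521 age-dependent genes of WT, by group (horizontal axis), with mean and SD over 4 libraries. The 4 *elavl3:Gal4; UAS:fynY531F* libraries at 5 dpf lie between 0.638 and 0.749, and those of *elavl3:Gal4* between 0.959 and 1.09, with replicate 3 as an open square.

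The same genotypes at 3 dpf, in other libraries, showed how much of the difference was present earlier. There 3572 of 19200 genes (18.6%) were called, 1704 higher (8.88%) and 1868 lower (9.73%). Of the 360 genes higher at 5 dpf that could be tested at 3 dpf, 126 (35%) were already higher and 29 (8.06%) were lower. Of 432 genes lower at 5 dpf, 167 (38.7%) were already lower and 6 (1.39%) were higher. The effect itself differed between the ages, by the interaction of genotype and age, in 844 of 20352 genes (4.15%), 494 with a larger value at 5 dpf (2.43%) and 350 with a smaller one (1.72%), and in 3286 genes without replicate 3. *irg1l* and *atf3* were higher at both ages, by 1.99 and 2.31 at 3 dpf, and *atp2a1l* and *cyp3a65* lower at both, by −1.24 and −1.64 at 3 dpf. *cfh*, *hmgcra*, *hspa8* and *acsl5* were not called at 3 dpf (0.11, 0.05, 0.12 and 0.08).

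In the order of tested genes along the chromosomes, 17 stretches held at least 3 called neighbours, 55 genes in all and 6.05% of those called. On chromosome 4, 5 genes from *optn* to *wnk1b* (8016457 to 8155571), among them *si:ch211-240l19.6* and the similarly named *si:ch211-240l19.5* and *si:ch211-240l19.7*, were lower. The chitinases *chia.1*, *chia.2* and *chia.3* (chromosome 11, 23993298 to 24016813) were lower together. *irg1l* and the genes next to it, *si:ch211-153b23.3* and *si:ch211-153b23.4* (chromosome 14, 11427052 to 11456724), were higher, as were the class I histocompatibility genes *mhc1zaa* and *mhc1zja* with *FP326649.1* (chromosome 3, 240636 to 402740). Several of these neighbours share a stem in their names, and reads can be divided between near-identical copies, so that their separate values are uncertain. The share of genes called ran from 2.87% on chromosome 11 to 7.21% on chromosome 4. On chromosome 4, 35 of 901 tested genes (3.88%) were called past a log2 fold change of 2 in either direction. By the same count of both directions, the other chromosomes ran from 0.271% on chromosome 15 to 2.58% on chromosome 12. Over all 19746 genes tested, with the directions counted apart, 108 higher (0.547%) and 129 lower genes (0.653%) were past that limit. Without replicate 3 the shares ran from 19.7% on chromosome 22 to 25.5% on chromosomes 4 and 18.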

How the data were processed

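RNA of whole larvae was enriched with poly(T) beads and sequenced, in 6 groups of 4 libraries labelled as biological replicates. The deposited files hold raw counts per gene, which the authors made, per the labels, with HISAT2 2.0.5, StringTie 1.3.3b and featureCounts 1.5.0-p3 on GRCz11. The roles and settings of these tools, the use of strand and the treatment of multiply mapped reads are not stated in the sources. Replicates were pools of larvae, and nothing more is given on how separate they were, so that p-values measure only the spread between these samples. Columns of normalised values and of the authors' own comparisons (fold changes and p-values) were not read. In all, 832 columns of per-sample values in the tables, the normalised ones among them, were left out. In 4 tables, 200500 count entries present more than once were compared and 0 differed.

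Counts were tested with edgeR 4.0.16 (R 4.3.3) by quasi-likelihood F tests after its default filter on low counts, with TMM scaling, the 2 groups alone in the fit, and Benjamini-Hochberg adjustment over all genes tested at a threshold of 0.05. The SE of a log2 fold change was its size divided by the square root of F. CPM used TMM scaling over all 24 libraries. Each fit was repeated without *elavl3:Gal4* replicate 3. The age effect in WT, the genotype effect at 3 dpf and the difference of the genotype effects (interaction) were fitted in the same way. Alternatives were DESeq2 1.42.0, limma 3.58.1 (voom with sample quality weights), other scalings and filters, all groups in 1 fit, a replicate block, a WT control and leaving out each library. The fitting code was tested on simulated counts. The age score is the projection of a library's log2(CPM + 0.5) on the difference between the WT means.

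The genes named are *fyna*, *fynb* and *elavl3*, the 8 per direction with the largest fold change (mean log2 CPM no lower than 1), the 5 per direction with the highest CPM past a log2 fold change of 1, the first by p per direction of each of 38 lists, and 5 per direction that set replicate 3 apart, the first 2 kinds without overlap between the groups and all called with and without replicate 3 where any were. Other list members and neighbours were named after their values were seen. The members and lists were chosen with earlier results of these data known. Lists are described by counts and medians, without a test. The precision of the lowest values is limited by counts of a few reads, and intervals cover counting error only. No sequences or promoters were analysed here, because no genome of the build was used. Some members counted in the lists are not reported here by name.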

Additional observations from a re-analysis of the deposited data

Results flagged for a closer look

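In 146 groups of 4 libraries examined, chance alone sets 1 library apart in about 1 in 20. *elavl3:Gal4* replicate 3 at 5 dpf stood apart from its group in the median correlation (0.863), as the lowest library for *fynb* (2.16 CPM), and as the highest for *cfhl4* (7.55 CPM), *fhl1a* (10.3 CPM), *hnrnpdl* (26.4 CPM), *si:ch211-77g15.32* (12.8 CPM), *acta1b* (1047 CPM), *glulc* (6.23 CPM), *crygm2d5* (139 CPM), *vil1* (466 CPM), *rpl21* (165 CPM), *mt-nd3* (1647 CPM), *gsta.1* (71.4 CPM) and *hbae3* (2312 CPM). Of these, *cfhl4*, *fhl1a*, *hnrnpdl*, *si:ch211-77g15.32*, *acta1b*, *glulc*, *vil1*, *rpl21* and *gsta.1* were called with and without it. Other libraries stood apart less often. Replicate 1 of *elavl3:Gal4; UAS:fynY531F* at 5 dpf did so in its median correlation (0.982) and was the highest for *fhl1a* (0.339 CPM), *fbxo32* (9.48 CPM) and *cdkn1a* (69.1 CPM). Its replicate 2 was the highest for *zgc:111983* (989 CPM) and *mospd1* (0.228 CPM), and its replicate 4 for *timp2b* (33.9 CPM). *elavl3:Gal4* replicate 1 was the lowest for *atf3* (6.82 CPM), and replicate 2 the highest for *slc27a2a* (112 CPM) and *tdrd5* (1.42 CPM). The age score of *elavl3:Gal4* replicate 1 at 3 dpf was −0.0695, apart from −0.0254 to −0.0178 in the rest of its group.

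For 41 of 69 named genes, not counting those that set replicate 3 apart, the genotype effect differed between the ages. This was by the interaction test (edgeR, adjusted p under 0.05), which called 844 of all 20352 genes (4.15%). Most of the 69 were picked by fold change or p at 5 dpf, in libraries that the interaction test also uses. A high share among them was thus favoured by the choice. The values here are the log2 difference of the effects, 5 minus 3 dpf. The value was negative for *fyna* (−2.38) and *socs3b* (−0.97), which were higher at both ages and less so at 5 dpf. Of the named complement and liver genes, *cfh* (6.71), *cfhl4* (4.54) and *cp* (1.46) had a larger effect at 5 dpf, while in *c3a.3* (−0.01) and both genes named *c6* (−1.10 and −0.80) no difference between the ages was called. A larger effect at 5 dpf was also called in *c3a.2* (2.09), *c7a* (0.93), *c9* (1.098) and *c5* (0.97), which are outside the 69. The same held for *apoba* (1.89) and both genes named *proca* (1.86 and 1.84). No difference was called in *c3a.1* (1.02), *c4* (0.57), *masp2* (0.60), *fga* (0.78), *f5* (0.36) and *plg* (0.62). Positive values were found as well for the matrix, cytoskeletal and epidermal genes *fn1b* (1.21), *col11a2* (1.54), *mmp9* (1.76), *myh9a* (1.31) and *krt96* (1.91).

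Other genes with a more positive effect at 5 dpf were *bcam* (4.24), *si:dkey-271j15.3* (3.82), *CR385054.1* (3.94), *CT573383.1* (5.97), *he1.2* (4.79), *si:dkey-239j18.3* (4.79), *paics* (1.63), *padi2* (0.95), *aqp8a.1* (4.38), *npc1* (0.90), *slc27a2a* (1.16), *nr1d4b* (2.17), *uhrf1* (0.89), *cdkn1a* (2.06), *sod3a* (1.26) and *tdrd5* (2.42). A more negative effect at 5 dpf was found for the metabolic genes *hmgcra* (−2.61), *acsl5* (−1.65), *mao* (−0.996), *slc3a2a* (−2.32) and *gsta.1* (−1.67). It was found as well for *nefmb* (−0.69), *npas4a* (−0.91), *opn1mw2* (−1.86) and *cry5* (−1.50), and for *pabpc4* (−5.77), *msh4* (−6.12), *hnrnpdl* (−4.65), *mospd1* (−4.89), *rpl21* (−3.24) and *hspa8* (−3.06). All 41 interactions called were also called without *elavl3:Gal4* replicate 3 at 5 dpf.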

How the results depend on the processing

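The count of genes called at 5 dpf, 909 with all 8 libraries, depended on how *elavl3:Gal4* replicate 3 was treated. It was 4562 without that library and ran from 341 to 590 without 1 of the others: 533, 423 and 493 without *elavl3:Gal4* replicates 1, 2 and 4, and 590, 378, 422 and 341 without *elavl3:Gal4; UAS:fynY531F* replicates 1 to 4. Limma with sample quality weights, in which replicate 3 had a weight of 0.04, gave 5469 genes, all 6 groups in 1 fit gave 5013, and the WT control gave 5700. DESeq2 gave 2399. Chosen after seeing the data, DESeq2 without replicate 3 gave 4723. Libraries of the same replicate number had correlations of deviations of −0.17, 0.01, −0.05 and 0.14, and those of other numbers from −0.15 to 0.16. With 1 library far apart, these values do not settle whether the numbers pair the libraries. The fit with a replicate block gave 178 genes, or 3407 without replicate 3, which was also chosen after seeing the data. The causes were not tested. Other scalings, filters and a fold limit gave 708 to 967 genes. The interaction count of 844 was 3286 without *elavl3:Gal4* replicate 3 at 5 dpf and down to 445 without 1 other library (*elavl3:Gal4; UAS:fynY531F* replicate 4 at 3 dpf). The 165 calls of list members (75 higher, 90 lower) became 548 without replicate 3, and 517 without it on library totals, a setting chosen after seeing the data. The 60 named genes called were picked among genes called with and without replicate 3, so their calls without it were set by that choice. All 60 kept the call with DESeq2, with the quality weights, in the fit of all groups and with the WT control. With library totals alone 52 kept it, with the block 34 and without 1 other library 41 to 49, and 0 reversed. Of genes not called, *fynb* (0.34) had −0.0067 without replicate 3, −0.00908 without it by DESeq2, −0.0482 without it with the block, −0.0528 with the WT control and up to 0.49 without *elavl3:Gal4* replicate 1. *elavl3* (0.31) had −0.0275 without replicate 3, −0.0300 without it by DESeq2, −0.065 without it with the block and up to 0.51 without *elavl3:Gal4* replicate 4, and *hbae3* (−1.40) had 0.10 with the WT control. Promoter motifs were not run. Genes with a few reads per library limit fold changes to the intervals given.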
